A study of Mus musculus with 12 samples.

Results

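The response of the Crhr1 knockout pituitary to restraint stress was examined 1 h after stress, against the pituitary of control mice of the same genotype. The comparison was defined by the sample titles. It uses the 2 arrays titled knockout at 1 h with stress and the 2 arrays titled knockout control, 4 of the 12 arrays of the series, and all probes on them. Crhr1 encodes the type 1 receptor for corticotropin-releasing hormone (CRH). The stressed group came from Crhr1 knockout mice held in restraint tubes for 30 min and killed 1 h after the onset of stress according to the sample titles and descriptions. The control group carried the same knockout, and its titles give no stress and no time. Per the labels, all animals of the series, controls included, were injected intraperitoneally with metyrapone, at 150 mg/kg 12 h ahead of the stress and again at 100 mg/kg immediately ahead of it, and a basal blood sample was drawn from the orbital sinus between the second injection and the stress. The remaining 8 arrays, used here for the spread and for levels set beside the knockout, came from the wild-type control, wild-type 1 h, wild-type 3 h and knockout 3 h groups, with 2 arrays each.

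Several features of the design limit what the groups can show. The source field of the knockout control arrays and of the knockout 3 h arrays names death 1 h after restraint, against their titles and descriptions. The titles were followed, and a doubt stays on the time of both groups. The RNA on each array was pooled from an unstated number of mice, and the titles call the 2 arrays of a group technical replicates, so the p-values measure the spread between arrays of a pool and not between mice. The design text, which gives N = 2, leaves it unclear whether pools or arrays are meant. The sources used here do not give the knockout allele, the strain, the sex or the age of the mice. Replicate 1 of every group lay on 1 slide and replicate 2 on the other, and each group kept the same position on both slides, so position and group cannot be told apart.

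CRH released from the hypothalamus binds CRHR1 on corticotropes of the anterior pituitary, raises cyclic AMP, and drives the release of adrenocorticotropic hormone, which in turn stimulates the adrenal cortex to make corticosterone. Vasopressin acts on the same cells through a separate receptor, and corticosterone closes the loop by restraining both the hypothalamus and the pituitary. Metyrapone blocks the last step of corticosterone synthesis and so weakens this feedback. Immediate early genes such as Fos, Egr1 and Npas4 are transcribed within minutes of calcium, cyclic AMP or growth factor signals without new protein synthesis, and their transcripts usually decline within hours.

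The values are log2 intensities after background correction with an offset of 16 and quantile normalisation, and a probe counted as detected on an array at a detection p-value under 0.01. Over the series, 6119 to 13506 probes were detected per array, with the lowest number on replicate 2 of the knockout 3 h group. The knockout control arrays had 12086 and 10700 detected probes, and the knockout 1 h arrays had 11868 and 9212. Across genes, replicates 1 and 2 correlated at 0.98 in the knockout control and at 0.97 at 1 h, and the SD of their log2 differences was 0.33 and 0.422. The deposited bead errors of the named genes that changed were 2.54% to 10.3% of the signal, from 21 to 65 beads per probe.

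The targeted gene itself was at the edge of detection. Probe 5390647 for Crhr1 passed detection on 4 of the 6 arrays of wild type and on 0 of the 6 arrays of the knockout, and its log2 intensity was 5.24 and 5.15 in the knockout controls and 5.50 and 4.68 at 1 h. Probe 450161 was detected on 1 array of each genotype, and probe 3140070 on none. The sources used here do not place these probes within the gene or against the deletion, and they are therefore a weak check of the genotype labels.

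Restraint was followed at 1 h by higher levels of 24 features and lower levels of 3, that is 27 of 11766 features tested (0.229% of all; 0.204% higher and 0.0255% lower). A feature was counted when it differed by at least 1.5-fold with an adjusted p under 0.05. The leading genes were Fos, Emb, Cyp26b1, Arc, Dusp1, Npas4, Csrnp1, Egr1 and Egr2. By normalised signals, undetected ones included, all 27 differed in the same direction and by at least 1.5-fold on both slides. For Dact1 and probe 103360064, each undetected in 1 of the groups compared, a 1.5-fold difference was not shown. The call uses these same arrays, so this agreement was largely fixed by the choice of features. Gene symbols were available for 20 of the features that rose and for 1, Eme1, of those that fell. An unadjusted p under 0.05 was reached by 1534 features, where 588 would pass if no feature differed, and 834 of them were higher (7.09% of all features) and 700 lower (5.95%). The median difference over all features was -0.03. With slide added as a term, 18 of the 27 still passed, and 6 passed whichever single array was left out: Fos, Dusp1, Npas4, Emb, Cyp26b1 and the unnamed probe 104060687. When replicate 2 of the knockout 1 h group was left out, 6 features passed, and when replicate 1 or replicate 2 of the control was left out, 7 and 8 passed. The count was 44 without replicate 1 of the knockout 1 h group, 9 or 10 without any 1 wild-type array and 77 without either knockout 3 h array.

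**Figure D1:**
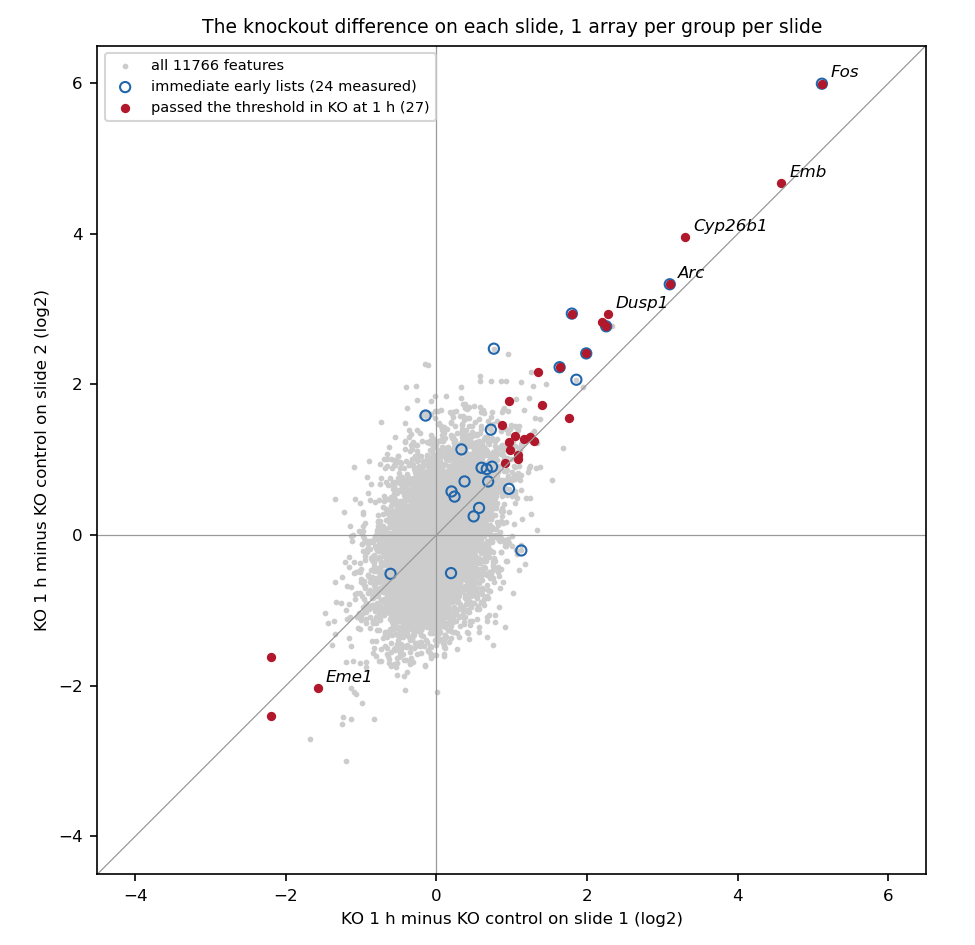
Log2 difference between knockout 1 h and knockout control on slide 1 (x axis) and slide 2 (y axis) for all 11766 features, with the 27 that passed the threshold in red and the 24 measured immediate early genes ringed in blue. Fos lies at 5.12 and 5.99 and Emb at 4.57 and 4.68. All 27 red points have the same sign on both axes, which the threshold, set on these same arrays, largely fixed.

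Fos, which encodes a subunit of the AP-1 transcription factor, rose strongly. Its log2 intensity was 6.60 and 6.15 on the knockout control arrays and 11.72 and 12.15 at 1 h. It was detected on 1 of the 2 control arrays and on both 1 h arrays, and it rose by 5.56 ± 0.40 on the log2 scale (limma SE, n = 2 arrays per group, adjusted p = 8.96e-04), or 47.0-fold. The groups were separated by more than 5 log2 units on both slides. Among the other AP-1 genes, Junb was at 7.42 and 7.96 in controls and at 9.28 and 10.02 at 1 h. Its difference of 1.96 ± 0.39 missed the threshold (adjusted p = 0.105). Fosl2 differed by 0.77 ± 0.24, Jund by 0.70 ± 0.16 and Jun by 0.39 ± 0.33. Atf3, a stress-induced factor of the ATF family, was not detected in controls and was detected on 1 array at 1 h, so no size is given. None of these 4 passed. Of 8 measured members of the AP-1 list, 1 passed (0.204% of all features passed higher). At an unadjusted p under 0.05, 5 were higher (7.09% of all features). The list's median difference was 0.74 against -0.03 over all features. With genes undetected in a group set to their bound, or to 0 where there was none, these medians were 0.58 and 0.

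The probes of Fosb, a close relative of Fos, disagreed. Probe 1940142 was at 5.48 and 4.82 in controls and at 8.46 and 8.69 at 1 h. In a fit over all 14405 detected probes it was at least 5.16-fold higher (adjusted p = 0.00194), with no control array above background. Here and below, a bound is given where a group was not detected on either array, with the dimmer group set to the lowest detected signal of each array or to its own signal where that was higher. Such a bound holds for the processing used here and not for every setting. Probe 100730706, the brighter one and therefore the one that represents Fosb in the list, was at 9.26 and 9.24 in controls and at 8.65 and 8.73 at 1 h, a difference of -0.56 ± 0.49 that did not pass. The dimmer probe separated the groups and the brighter probe did not rise. The sources used here do not say which transcripts each probe matches.

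Of the 4 measured zinc finger genes of the Egr family, 2 rose. Egr1, a transcription factor induced by growth factor and calcium signals, was at 10.69 and 10.25 in controls and at 12.68 and 12.66 at 1 h, and it rose by 2.20 ± 0.24 (adjusted p = 0.0114), or 4.60-fold. Egr2 was at 5.47 and 5.11 in controls, where it was not detected, and at 7.11 and 7.34 at 1 h, at least 2.02-fold higher (adjusted p = 0.00306). For both genes the 1 h arrays lay above both control arrays by more than the spread within either group. Egr4 was at 6.82 and 5.76 in controls and at 7.58 and 8.23 at 1 h, a difference of 1.62 ± 0.39 (adjusted p = 0.163) that was 0.76 on slide 1 and 2.47 on slide 2. Egr3 differed by 0.54 ± 0.28, and Nr4a2, an orphan nuclear receptor, by 0.37 ± 0.34, and neither passed. Nab2, a corepressor of Egr proteins, was not detected in controls and was detected on 1 of the 2 arrays at 1 h. It was at 5.88 and 5.53 in controls and at 5.73 and 7.12 at 1 h, lower on slide 1. Its bound of at least 1.16-fold higher thus rests on 1 array, and it did not pass (adjusted p = 0.46). All 6 measured genes of the Egr and Nr4a list had positive differences (46.9% of all features did), 5 of them on both slides (31.8%). Of the 6, 2 passed (0.204% of all features passed higher). The median was 1.17, or 0.78 with undetected genes at their bound. Nr4a1 and Nr4a3 were on the array but were removed by the detection filter.

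Further immediate early genes, some best known from activated neurons, rose as well. Npas4, a transcription factor switched on by calcium entry, was at 5.34 and 5.40 in controls and at 7.59 and 8.17 at 1 h, at least 3.20-fold higher (adjusted p = 0.00138). Arc, which encodes a synaptic protein that controls receptor trafficking, was at 5.24 and 6.10 in controls and at 8.34 and 9.43 at 1 h, at least 6.39-fold higher (adjusted p = 0.0271). Csrnp1, which encodes a nuclear protein that activates transcription, was at 5.30 and 5.01 and then at 7.09 and 7.95, at least 2.49-fold higher (adjusted p = 0.0455, and 0.0566 with the slide as a block). None of the 3 genes was detected on a control array, and each was detected on both 1 h arrays. Of the 10 measured genes in this list these 3 passed (0.204% of all features passed higher). Positive differences were found in 9 (46.9% of all features), and the median was 0.79. Klf2 differed by 1.06 ± 0.39, Ier3 by 0.82 ± 0.17, Klf6 by 0.38 ± 0.18 and Srf, the serum response factor that itself drives many immediate early genes, by 0.75 ± 0.16, and none of these passed. Across the 3 immediate early lists together, 24 of 35 genes were measured and 6 passed (0.204% of all features passed higher). Of the 24, 22 had positive differences (46.9% of all features did) and 20 were higher on both slides (31.8% of all features). The median was 0.76, or 0.72 with undetected genes at their bound. Only genes that passed the filter on dim probes are counted, and a gene that is dim in controls passed it through the groups where it is brighter.

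The promoters of Fos, Dusp1 and Npas4 are printed because these genes rose, passed whichever array was left out, and hold a shared motif. Emb and Cyp26b1 also rose and passed whichever array was left out, but their windows hold no TGACGT and are not printed. The windows are the 250 bases before the annotated transcription start from RefSeq (GRCm38.p6), written in the direction of transcription, at chr12:85473640-85473889 on the plus strand for Fos, chr17:26508473-26508722 on the minus strand for Dusp1 and chr19:4989972-4990221 on the minus strand for Npas4. Capitals mark TGACGT on either strand, the core of the site bound by CREB, the factor activated by cyclic AMP, and TATAAA on the forward strand.
Fos: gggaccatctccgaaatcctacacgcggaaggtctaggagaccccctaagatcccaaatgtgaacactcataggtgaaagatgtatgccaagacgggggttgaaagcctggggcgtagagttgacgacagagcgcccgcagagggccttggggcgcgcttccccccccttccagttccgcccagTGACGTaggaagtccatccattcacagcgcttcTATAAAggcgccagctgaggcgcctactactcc
Dusp1: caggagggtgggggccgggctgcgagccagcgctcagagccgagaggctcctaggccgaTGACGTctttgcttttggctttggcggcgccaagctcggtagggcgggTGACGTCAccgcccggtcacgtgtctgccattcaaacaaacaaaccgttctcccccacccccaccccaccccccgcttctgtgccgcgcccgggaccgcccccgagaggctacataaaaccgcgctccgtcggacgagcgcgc
Npas4: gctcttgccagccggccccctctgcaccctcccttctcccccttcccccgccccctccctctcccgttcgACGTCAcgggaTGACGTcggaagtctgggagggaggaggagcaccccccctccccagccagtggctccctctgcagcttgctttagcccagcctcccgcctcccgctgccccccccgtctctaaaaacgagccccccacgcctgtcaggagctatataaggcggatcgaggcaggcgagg
The Fos window holds TGACGT 66 bases and TATAAA 33 bases before the start. The Dusp1 window holds TGACGT 191 and 143 bases before the start and, overlapping the latter, again on the reverse strand 141 bases before it. The Npas4 window holds it 169 bases before the start and on the reverse strand 180 bases before the start. Of the 21 named genes that changed, 17 had a window in the table, 16 of them genes that rose. TGACGT occurred on either strand in 6 of these 16 (37.5%), Fos, Dusp1, Npas4, Egr2, Dact1 and Man1b1, against 1971 of 27025 gene windows of this length (7.29%). The CArG box, the motif of the serum response factor, occurred on either strand in 1 of the 16 (Egr2) and in 1.62% of all windows. TATAAA, for these shares also counted on either strand, occurred in 3 of the 16 (18.8%) and in 14.3% of all. A match of letters is not a measurement of binding.

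Feedback regulators of kinase signalling were led by Dusp1, a phosphatase that switches off MAP kinases. Dusp1 was at 9.80 and 9.58 in controls and at 12.07 and 12.52 at 1 h, and it rose by 2.60 ± 0.20 (adjusted p = 0.0011), or 6.08-fold. The 1 h arrays lay more than 2 log2 units above the controls on both slides. Dusp8, a phosphatase of the same family, was at 6.56 and 6.45 in controls and at 7.87 and 8.01 at 1 h, and its difference of 1.43 ± 0.35 did not pass (adjusted p = 0.165). Errfi1, an inhibitor of the EGF receptor, differed by 0.64 ± 0.22, Dusp14 by 0.65 ± 0.27 and Dusp5 by 0.48 ± 0.20, none of which passed. The 7 measured genes of this list had a median of 0.64, with 1 that passed (0.204% of all features passed higher) and 6 positive (46.9%). In the list of cyclic AMP and CREB targets, 3 of 11 measured genes passed, Fos, Dusp1 and Cited2 (0.204% of all features passed higher), 7 were positive (46.9% of all features) and the median was 0.10. Cited2, which encodes a protein that binds the coactivators CBP and p300, was at 9.30 and 9.17 in controls and at 10.21 and 10.13 at 1 h, and it rose by 0.93 ± 0.14 (adjusted p = 0.0471, and 0.0533 with the slide as a block). Per1, a clock gene that cyclic AMP also induces, differed by 0.63 ± 0.38, Crem, whose short product represses cyclic AMP targets, by -0.27 and Ppargc1a, a coactivator of metabolic genes, by -0.29 ± 0.25, and none passed.

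Genes known to respond to glucocorticoids were examined because metyrapone, which blocks corticosterone synthesis, was given to both groups. Of 21 measured, 1 passed (0.204% of all features passed higher), Dusp1, which also belongs to the MAP kinase list. At an unadjusted p under 0.05, 8 were higher and none lower (7.09% and 5.95% of all features were), and the median was 0.46. With the 2 undetected genes at their bound the median was 0.19. Cebpb, a transcription factor of the C/EBP family, was at 8.36 and 8.61 in controls and at 9.39 and 9.53 at 1 h, just outside the threshold with a difference of 0.98 ± 0.18 (adjusted p = 0.0837). Rasd1, a small G protein induced by dexamethasone, was at 7.13 and 6.78 and then at 8.38 and 8.94, a difference of 1.71 ± 0.41 that did not pass (adjusted p = 0.162). The groups of both genes did not overlap, which 2 arrays against 2 can also give by chance. The share of all features so separated was not counted, and no result is read from such a separation alone, here or below. Tgm2, a transglutaminase, differed by 0.79 ± 0.16 (adjusted p = 0.111). Cdkn1a, a cell cycle inhibitor, was not detected in controls and was detected on 1 array at 1 h, so no size is given. It did not pass (adjusted p = 0.2).

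None of the 13 measured circadian clock genes passed, although 7 were higher and 2 lower at an unadjusted p under 0.05 (7.09% and 5.95% of all features were) and the median was 0.61. Bhlhe40, a repressor in the clock, was at 9.18 and 8.92 in controls and at 10.02 and 10.38 at 1 h, a difference of 1.15 ± 0.20 (adjusted p = 0.0711). Nr1d1, which encodes the nuclear receptor REV-ERB alpha, was at 7.74 on both control arrays and at 8.52 and 8.98 at 1 h (1.01 ± 0.22, adjusted p = 0.133), and its second probe, not detected in controls, was at least 2.15-fold higher without passing (adjusted p = 0.184 over all detected probes). Nr1d2, its close relative, was at 8.22 and 8.47 and then at 7.81 and 7.14, a difference of -0.87 ± 0.29 that did not pass. The 1 h arrays were above the controls for the first pair of genes and below them for Nr1d2. Dbp, a clock output factor, differed by 0.79 ± 0.17 and Per2, a core clock repressor, by 0.68 ± 0.20. The sources used here do not give the clock time of death of each group, so time of day and stress cannot be told apart.

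Among genes of cytokine feedback and the acute phase, Nfkbiz, an atypical inhibitor and coactivator of NF-kappa-B, passed. It was at 7.05 and 6.92 in controls and at 8.40 and 9.09 at 1 h, and it rose by 1.76 ± 0.27 (adjusted p = 0.0455, and 0.0608 with the slide as a block), or 3.38-fold, with both 1 h arrays above both controls. Socs3, the feedback inhibitor of cytokine receptors that signal through STAT3, differed by 0.55 ± 0.16 (adjusted p = 0.218) and Serpina3n, an acute-phase protease inhibitor, by 0.89 ± 0.30 (adjusted p = 0.274). Stat3 itself differed by 0.34 ± 0.15. Of 12 measured genes 1 passed (0.204% of all features passed higher) and 9 were positive (46.9%). The median was 0.47, or 0.37 with undetected genes at their bound. Heat shock proteins and the unfolded protein response had medians of -0.06 and 0.03 with no member past the threshold among 9 and 13 measured genes. Their smallest unadjusted p-values belonged to the cochaperones Dnajb1 (0.40 ± 0.14) and Bag3 (0.41 ± 0.16), the chaperones Hsph1 (-0.32 ± 0.17) and Hspa8 (0.24 ± 0.15), and to Chac1 (0.53 ± 0.17), Herpud1 (0.39 ± 0.16), Atf4 (0.78 ± 0.34) and Hsp90b1 (0.34 ± 0.20). The cholesterol synthesis list had a median of -0.04 over 11 measured genes, none past the threshold. Fdps was at -0.64 ± 0.20, Cyp51 at -0.56 ± 0.19 and Hmgcs1 at -0.25 ± 0.15. A second, dimmer probe of Cyp51 went the other way, at 0.34. Dhcr7 was not detected in controls and was detected on 1 array at 1 h, so no size is given.

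**Figure D2:**
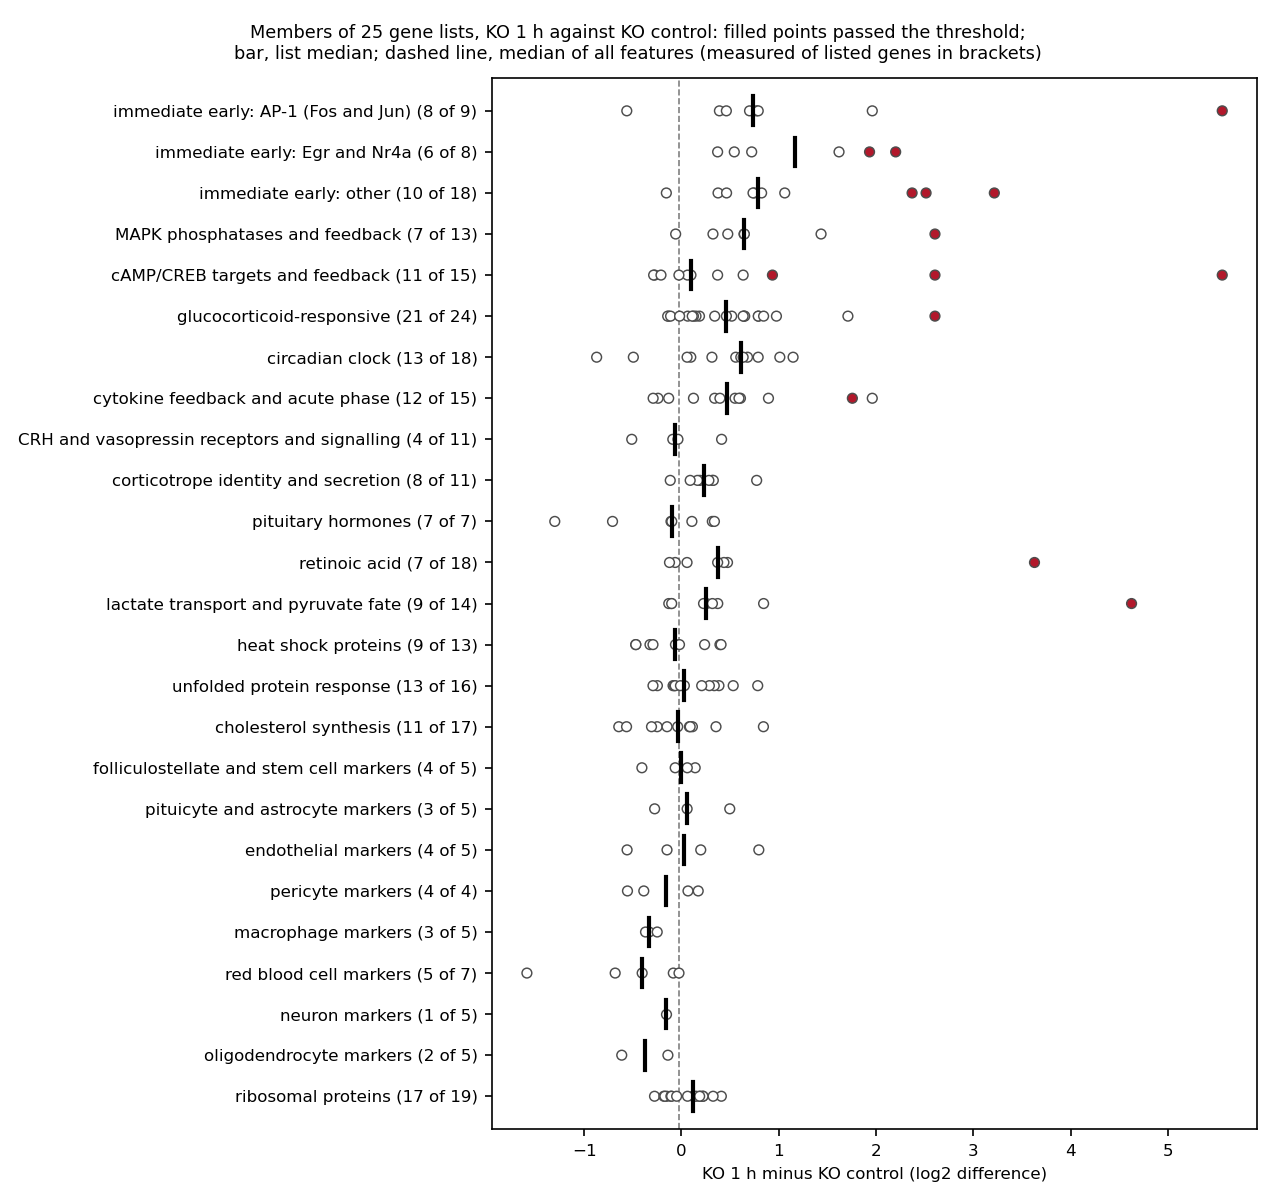
Log2 difference between knockout 1 h and knockout control (x axis) of the measured genes of 25 lists, 1 row per list, with filled points for genes past the threshold, a bar at each list's median and a dashed line at the median of all features, -0.03. The immediate early, MAP kinase feedback, glucocorticoid, cytokine and clock lists lie to the right of the dashed line with medians of 0.46 to 1.17. The retinoic acid list lies at 0.37. The red blood cell, oligodendrocyte and macrophage lists lie to the left at -0.40, -0.38 and -0.33. Undetected signals are included, and with such genes at their bound the glucocorticoid median was 0.19 and the macrophage median 0.

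Emb and Cyp26b1, which are not immediate early genes, rose strongly from knockout control levels below those of every other group. Emb encodes embigin, a membrane glycoprotein that carries lactate transporters to the cell surface. It was at 4.83 and 4.88 on the knockout control arrays, where it was not detected, and at 9.41 and 9.56 at 1 h, at least 9.68-fold higher (adjusted p = 1.24e-05). Its wild-type levels were 10.72 and 10.71 in controls and 10.57 and 10.58 at 1 h, so the stressed knockout arrays came near, but stayed below, the wild type. Cyp26b1, an enzyme that degrades retinoic acid, was at 5.96 and 5.62 in knockout controls and at 9.26 and 9.58 at 1 h, at least 9.27-fold higher (adjusted p = 9.47e-05). In wild type it was at 8.99 and 8.76 in controls and at 9.01 on both 1 h arrays. For both genes the knockout control arrays alone stood apart.

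Mt3, a zinc- and copper-binding metallothionein, was at 7.25 and 7.29 in knockout controls and at 8.65 and 9.03 at 1 h (1.57 ± 0.17, adjusted p = 0.011). Mt3 was at 8.89 and 8.87 in wild-type controls, within the range of the stressed knockout. Ddit4l, an inhibitor of the growth kinase mTORC1, rose by 1.66 ± 0.24 (adjusted p = 0.0455), and Vegfd, a growth factor for lymphatic vessels, by 1.37 ± 0.21 (adjusted p = 0.0455). Phlda1, which encodes a protein with a pleckstrin homology-like domain, rose by 1.27 ± 0.18 (adjusted p = 0.0399). Man1b1, a mannosidase that trims misfolded glycoproteins, rose by 1.22 ± 0.17, Tmem117, a transmembrane protein, by 1.18 ± 0.17, Faf2, a protein of endoplasmic reticulum degradation, by 1.17 ± 0.18, and Nectin2, an adhesion molecule, by 1.05 ± 0.14. Their adjusted p-values lay between 0.0328 and 0.0455. With the slide as a block the calls of Ddit4l, Vegfd and Faf2 were lost (adjusted p = 0.0608 for each). On replicate 2 the knockout control level of Ddit4l, 6.40, was not below that of the wild-type 3 h array, 6.36. Dact1, a regulator of Wnt signalling, was not detected in controls and was detected on 1 of the 2 stressed arrays, so no size is given. It passed as higher (adjusted p = 0.0455, and 0.0513 with the slide as a block), and it was not detected in wild-type controls either. In the retinoic acid list Cyp26b1 was the 1 gene of 7 measured that passed, with a median of 0.37. In the list of lactate transport and pyruvate fate Emb was the 1 of 9, with a median of 0.26. Of all features, 0.204% passed higher. Rxrg, a retinoid receptor, differed by 0.47 ± 0.17, Aldh1a1, an enzyme that makes retinoic acid, by 0.44 ± 0.38 and Rarb, a retinoic acid receptor, by 0.37 ± 0.39. Pdk4 and Pdk3, kinases that inhibit pyruvate dehydrogenase, differed by 0.84 ± 0.31 and 0.23 ± 0.22, Pdha1, a subunit of that enzyme, by 0.37 ± 0.18 and Ldha, a lactate dehydrogenase subunit, by 0.26 ± 0.18, and none of these passed.

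**Figure D3:**
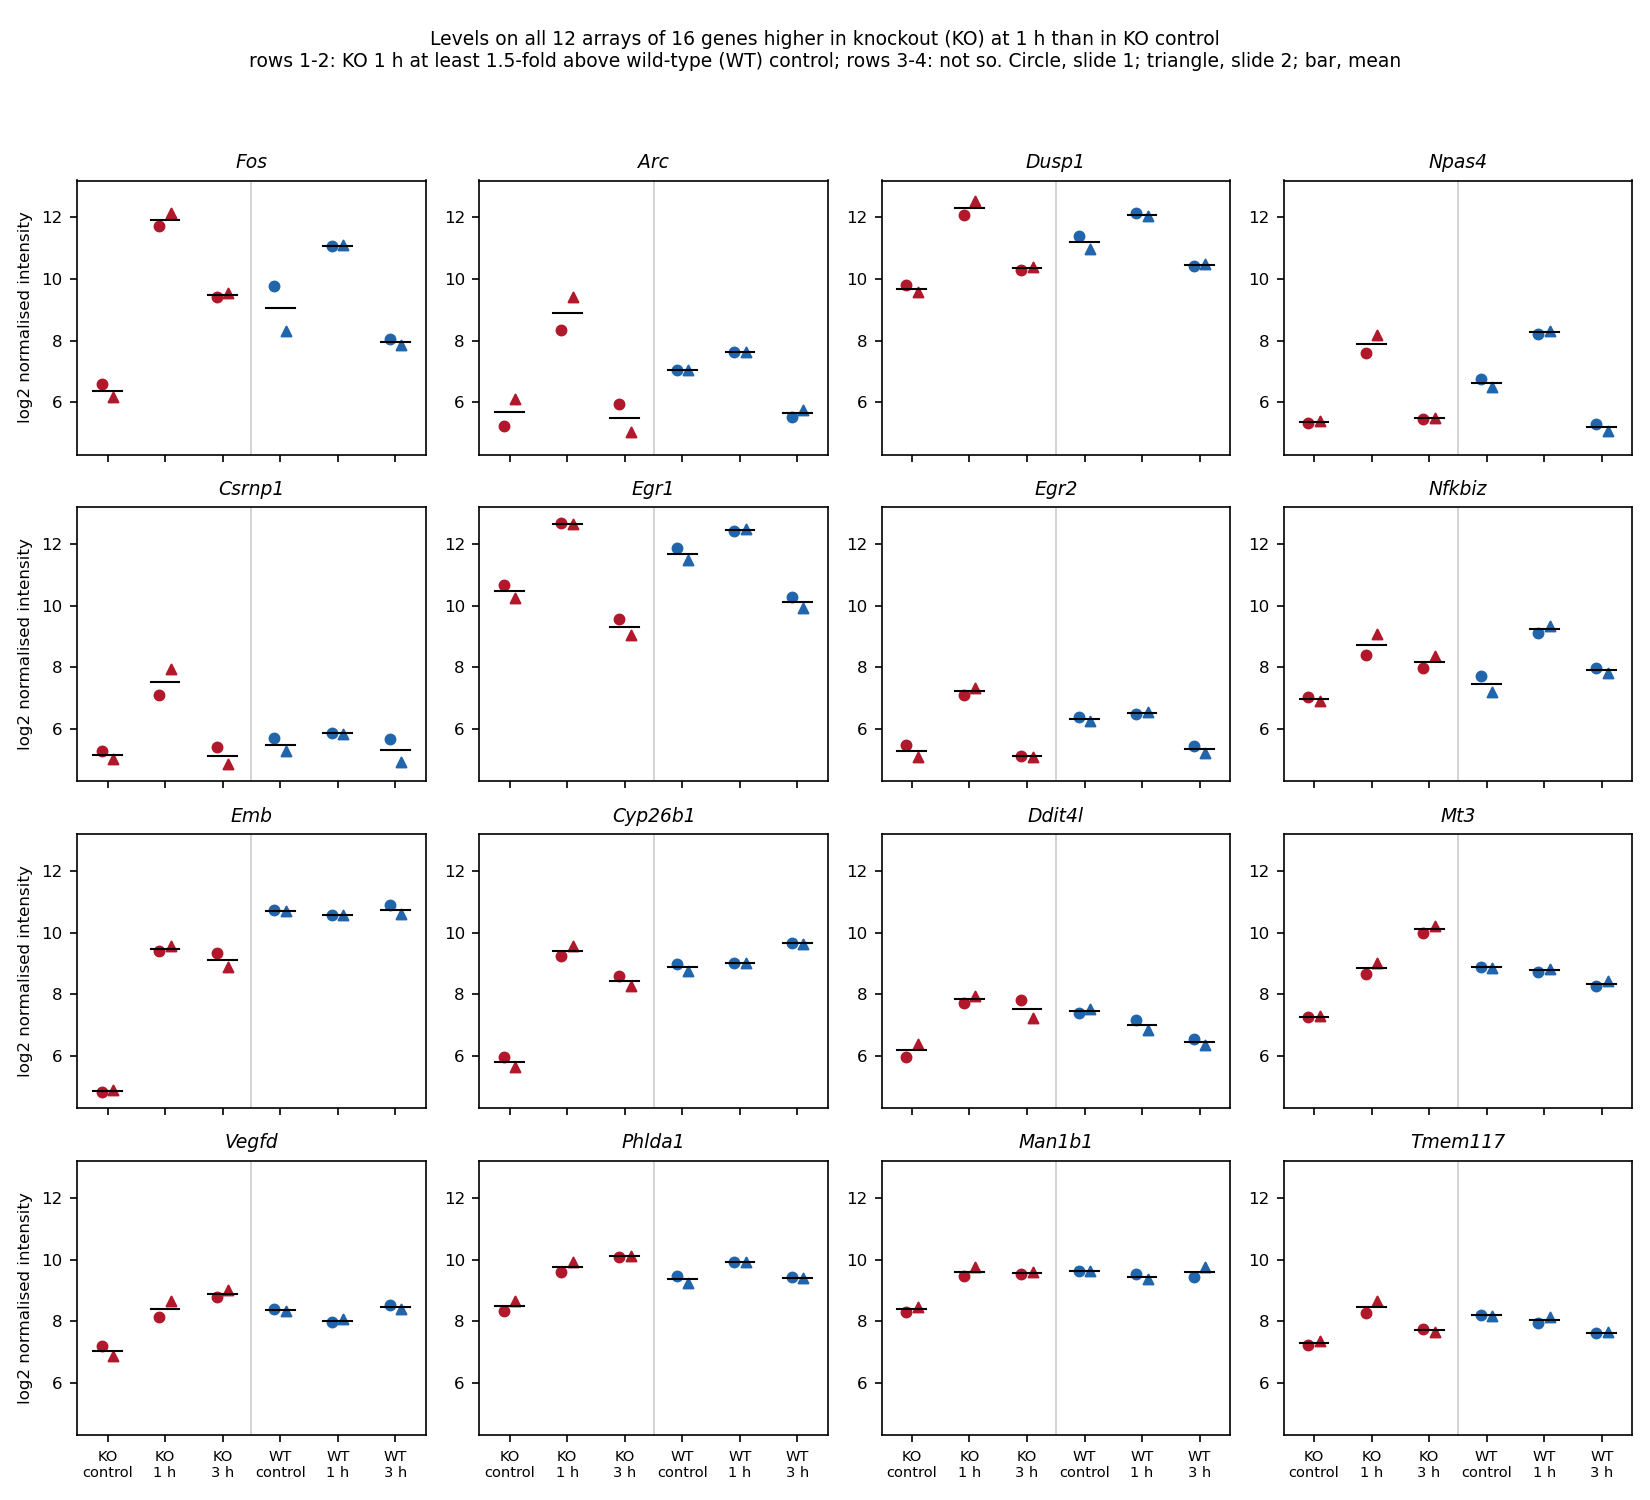
Log2 normalised intensity (y axis) on each of the 12 arrays for 16 genes that rose in knockout (KO, red) at 1 h, by group (x axis), with circles for slide 1, triangles for slide 2, a bar at each mean, and wild type (WT) in blue. The upper 2 rows hold genes whose KO 1 h level was at least 1.5-fold above the WT control, such as Fos, and the lower 2 rows hold genes whose KO 1 h level was not, such as Emb and Cyp26b1.

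The levels of the 24 features that rose were set beside the wild-type controls, a description made after the values were seen. By group means, undetected signals included, the knockout at 1 h was at least 1.5-fold above the wild-type control for 11 features. These were Arc, Cited2, Csrnp1, Dact1, Dusp1, Egr1, Egr2, Fos, Nfkbiz, Npas4 and probe 104060687. The knockout was within 1.5-fold of the wild-type control for 12, among them Cyp26b1, Mt3, Vegfd and Man1b1, and below it for 1, Emb, with a difference of -1.24. Csrnp1 and Dact1 were not detected in controls of either genotype. Dact1 was at 6.375 and 6.600 at 1 h, and the lowest detected signals of the wild-type control arrays were 6.043 and 6.315. For Dact1 a 1.5-fold excess was thus not shown. In 23 of the 24, Csrnp1 and Dact1 included, the knockout control mean was below the wild-type control mean, as it was for 49.1% of all features. In 17 of the 24 both knockout control arrays were lower than the 10 other arrays of the series, an order that 6.52% of all features had. Since the call itself places the knockout controls below the knockout 1 h arrays, part of this order was fixed by the choice of features. The promoter motif TGACGT was found in 5 of the 7 genes of the first class that had a window (71.4%) and in 1 of the 9 others (11.1%). Of all gene windows, 7.29% held it. Dact1, whose place in the first class was not shown, is 1 of the 5 genes, and Arc, Egr1 and Nfkbiz of that class had no window. Because the classes were set after the values were seen, no difference between them is read from these shares.

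The 3 features that fell were detected in the knockout controls alone. Eme1, a subunit of a structure-specific DNA endonuclease, was at 7.68 and 7.29 in knockout controls and at 6.10 and 5.26 at 1 h, where it was not detected, at least 2.13-fold lower (adjusted p = 0.0455, and 0.0566 with the slide as a block). The unnamed probes 105910041 and 103360064 were at least 2.62-fold and 1.40-fold lower (adjusted p = 0.0221 for both). All 3 were detected on both knockout control arrays, on neither knockout 1 h array and on none of the 6 wild-type arrays. In all 3 both knockout control arrays were higher than the 10 other arrays, which held for 9.34% of all features. None of the 3 was detected on any array but the knockout controls, so they passed the filter on dim probes only through the group where they are high, and this order was largely fixed by the filter and the call.

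In wild-type pituitaries 8 features passed the same threshold at 1 h (0.068%), 5 of them higher (0.0425%). Npas4 was the 1 feature higher in both genotypes, with a wild-type difference of 1.66 ± 0.21 (adjusted p = 0.0316) from 6.74 and 6.48 to 8.23 and 8.31. Fos differed by 2.04 ± 0.40 in wild type (adjusted p = 0.236), from 9.78 and 8.32 in controls to 11.06 and 11.11 at 1 h. The wild-type control arrays were thus above the knockout controls for Fos, and the 1 h levels of the genotypes were closer, with the knockout 0.85 above the wild type (adjusted p = 0.347). Dusp1 was at 11.40 and 10.98 in wild-type controls and at 12.15 and 12.04 at 1 h, and its 1 h levels differed by 0.20 between genotypes (adjusted p = 0.691). Nfkbiz differed by 1.78 ± 0.27 (adjusted p = 0.0797) and Cited2 by 0.98 ± 0.14 (adjusted p = 0.0787) in wild type, near the knockout values of 1.76 and 0.93. Of the 24 measured immediate early genes 22 were positive in wild type too (48.6% of all features were), with a median of 0.55 and 1 past the threshold.

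The difference between the 2 genotypes' responses was tested as an interaction, and 6 features passed (0.051%). The response was larger in the knockout for Emb by at least 3.42 on the log2 scale (adjusted p = 2.02e-04), for Cyp26b1 by at least 3.08 (adjusted p = 0.00267) and for probe 104060687 by at least 1.94 (adjusted p = 0.0322), bounds because none was detected in knockout controls. Spink8, a serine peptidase inhibitor, and Ttc27, a tetratricopeptide repeat protein, passed through a fall in the wild type. Spink8 was at 8.42 and 8.62 in wild-type controls and at 5.53 and 5.50 at 1 h, at least 5.29-fold lower, while in the knockout it was at 7.54 and 7.49 and then at 7.41 and 7.04. Ttc27, detected on 1 of the 2 wild-type 1 h arrays, fell by 2.77 ± 0.22 in wild type and differed by -0.24 ± 0.22 in the knockout. The interaction did not pass for Fos (3.52 ± 0.57, adjusted p = 0.0982), Egr2 (adjusted p = 0.0762), Dusp1 (1.70 ± 0.29, adjusted p = 0.104), Arc (adjusted p = 0.245) or Npas4 (adjusted p = 0.383), so a larger response of these genes in the knockout was not shown.

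**Figure D4:**
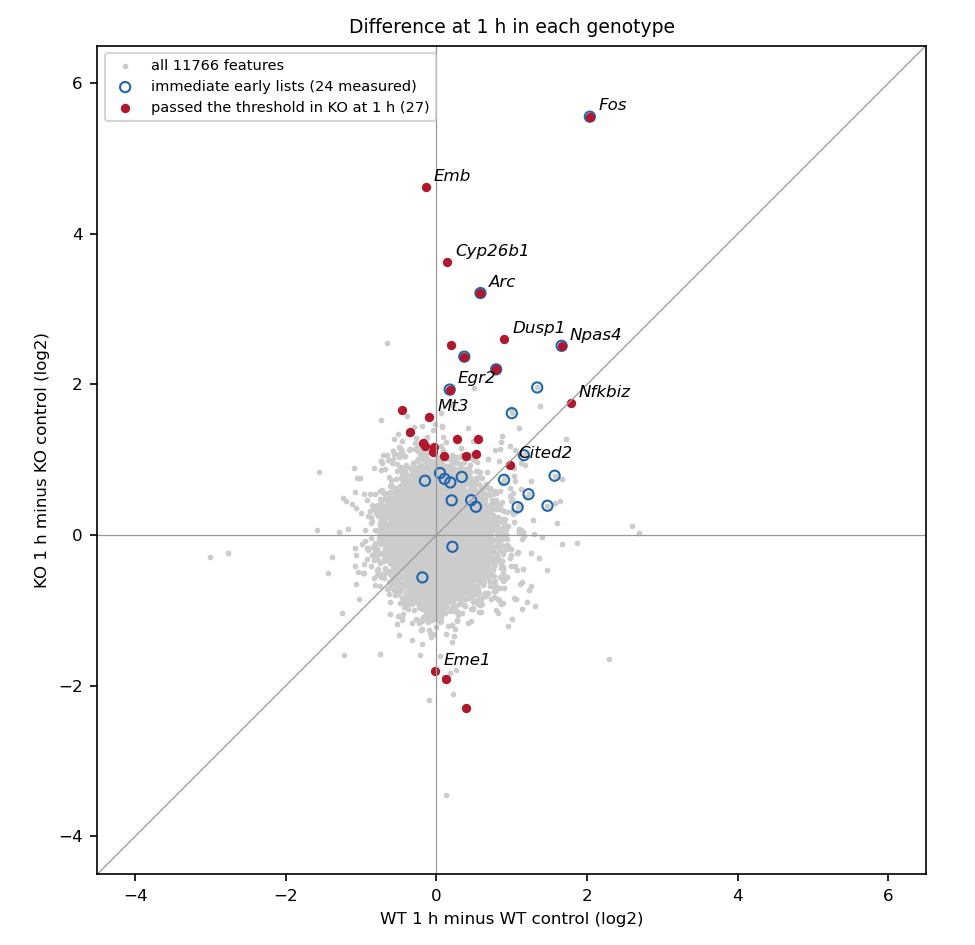
Log2 difference at 1 h against control in wild type (WT, x axis) and in knockout (KO, y axis) for all 11766 features, with the 27 that passed in KO in red, immediate early genes ringed in blue and the line of equal differences drawn. Emb and Cyp26b1 lie near 0 on the WT axis, while Nfkbiz and Cited2 lie close to the line.

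The unstressed genotypes already differed in 271 features (2.3%), 98 higher and 173 lower (1.47%) in the knockout. These values share the knockout control arrays with the stress comparison, so they are given side by side and not as separate evidence. Between control groups, knockout minus wild type, the difference was -2.67 for Fos (adjusted p = 0.019), -1.21 for Egr1 (adjusted p = 0.0451) and -1.61 for Mt3 (adjusted p = 0.00787). For Emb, Cyp26b1 and Npas4 the knockout controls were below detection and the adjusted p was 1.51e-06, 3.90e-04 and 0.0272. Eme1, not detected in wild type, was the higher one in the knockout (adjusted p = 0.00787). At 1 h, in a comparison added after the data were seen, 95 features differed between genotypes (0.807%), and Emb was among them, with a difference of -1.09 (adjusted p = 0.0391).

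The arrays titled knockout 3 h were set against the same controls. Their source field names 1 h, and replicate 2 had the fewest detected probes of the series, with a lowest detected log2 signal of 7.58. Of the 24 features higher at 1 h, 15 were also called higher at 3 h, where 4% of all features were, and 1, Egr1, was called lower, as 6.55% were, with a difference of -1.16 (adjusted p = 0.0232). Fos was at 9.42 and 9.54 at 3 h, between its control and 1 h levels, while Arc, Npas4, Egr2 and Csrnp1 were detected on no 3 h and no control array, so no difference is given for them. Emb stood at 9.33 and 8.90 and Cyp26b1 at 8.59 and 8.28 at 3 h, both far above the controls. Mt3 reached 9.99 and 10.22, above its 1 h level. Fos, Emb, Cyp26b1 and Mt3 were thus above their control levels on the 3 h arrays, and Egr1 was below its own.

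None of the 7 pituitary hormone genes passed, and their median difference was -0.10. Pomc, the precursor of adrenocorticotropic hormone, was at 15.26 on both control arrays and at 15.57 on both 1 h arrays. The difference was 0.32 ± 0.14 (adjusted p = 0.394). The equal levels are steps of the quantile normalisation near the top of its scale, so the error does not measure their spread. On replicate 2 at 1 h the raw intensity was 65160, above the 60000 set as a flag for saturation. Neither a response nor its absence is read from Pomc. Tshb, the beta subunit of thyrotropin, was at 13.19 and 13.40 and then at 12.81 and 12.37 (-0.71 ± 0.18, adjusted p = 0.175), and Fshb, the beta subunit of follicle-stimulating hormone, differed by -1.30 ± 0.64 (adjusted p = 0.431). Lhb, that of luteinizing hormone, differed by 0.34 ± 0.28. In Tshb and Fshb the 1 h arrays lay below the controls. Gh and Prl, the genes of growth hormone and prolactin, were at the ceiling of the normalised scale, and no order is read from them. Of 8 measured corticotrope genes none passed and the median was 0.24, with 0.28 ± 0.23 for Tbx19, the corticotrope lineage factor, 0.33 ± 0.18 for Cpe, a prohormone-processing enzyme, and 0.19 ± 0.16 for Chga, a protein of secretory granules. In the list of CRH and vasopressin signalling 4 of 11 genes were measured and none passed. Gnas, the stimulatory G protein, differed by 0.41 ± 0.17 and Prkaca, a catalytic subunit of protein kinase A, by -0.09 ± 0.23. Further detected probes of Gnas disagreed in sign, from -0.51 to 0.66. Avpr1b, the vasopressin receptor of corticotropes, was not detected on any of the 4 knockout arrays compared.

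Markers of other cell types were read beside these results, because in a whole gland fewer cells of a type and less RNA per cell cannot be told apart. Red blood cell markers were lower at 1 h in all 5 measured genes (46.9% of all features were higher), with a median of -0.40 and none past the threshold. Their summed linear intensity was 11730 and 11100 in controls against 8333 and 7438 at 1 h. Hbb-bs, a beta globin gene, was at 12.70 and 12.63 in controls and at 12.09 and 11.88 at 1 h (-0.68 ± 0.15, adjusted p = 0.142). Its 8 further detected probes differed by -0.87 to -2.22, and near-identical globin genes can share signal. In wild type the same sum was 7571 and 7646 in controls and 5048 and 4731 at 1 h. This sum was lower on the stressed arrays than on the control arrays in both genotypes, and its part in the other results was not tested.

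For the remaining cell types no marker passed. Endothelial markers summed to 1070 and 1097 in controls and to 1321 and 1294 at 1 h, with Plvap, a protein of fenestrated capillaries, at 0.79 ± 0.19 (adjusted p = 0.164) and Pecam1 at -0.56. Pericyte markers summed to 747.1 and 785.4 and then to 716.3 and 535.9, with Rgs5 at -0.55 ± 0.24. The 3 measured macrophage markers had sums of 212.5 and 236.9 against 210.0 and 142.7. Of the posterior lobe and astrocyte markers 3 of 5 were measured, with sums of 555.4 and 587.4 against 550.1 and 486.8, and of the neuron markers 1 of 5, Syt1, which endocrine cells also express. Folliculostellate and stem cell markers summed to 610.6 and 730.2 against 593.5 and 489.6. Gfap, Rax, Slc17a7, Neurod6, Nefl, Mog and Mobp, which mark pituicytes, neurons and oligodendrocytes, did not pass the detection filter.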

How the data were processed

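Pituitary RNA was pooled, amplified once, labelled with Cy3 and hybridised to Illumina mouse BeadChips, per the labels' protocols. The deposited files hold, for each of 46147 probes, a raw mean bead intensity without background subtraction or normalisation, together with the number of beads and a bead standard error, per the file headers. BeadStudio is named in the submitters' processing notes. A detection p-value per probe stands beside it, as deposited by the authors. A separate table by the authors holds processed intensity values for 46133 of the probes, whose scaling is not stated, and it served as an alternative. The 14 probes missing from it were left out.

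Background was removed from the raw intensities by normexp (limma 3.58.1, R 4.3.3, offset 16, background inferred from detection p-values), followed by quantile normalisation over 12 arrays and a log2 transform. Probes with a detection p-value under 0.01 on at least 2 arrays were kept (14405), and the brightest probe stood for each gene symbol, which gave 11766 features, 8592 of them named. Of the probes, 29542 had 1 symbol in the platform annotation, 11 had several and 16580 had none. A linear model with 1 term per group was fitted to all 12 arrays with lmFit and eBayes, p-values were adjusted by the Benjamini-Hochberg method over all features, and a call needed an adjusted p under 0.05 and a difference of 1.5-fold. Errors are standard errors of limma. The script was tested on simulated data. The number of arrays limits the precision.

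The rule for named genes took every feature with a symbol that passed in knockout at 1 h or in the interaction, Crhr1, 7 hormone genes and, of each of 25 gene lists, the members that passed and up to 4 more with the smallest unadjusted p. Of the cell type and ribosomal lists, the text gives sums or medians and names only some of these members. Jun, Fosb and Nr1d2 were added after their values were seen, as was the second probe of Fosb. The members and the lists were chosen with earlier results of these data known. The list of ribosomal proteins, not described in the report, had a median of 0.12 over 17 measured genes, none past the threshold, and that of oligodendrocyte markers -0.38 over 2. Replicate numbers and slides coincide in the file headers, so replicates were paired by a shared slide, and deviations of paired arrays correlated between -0.155 and 0.472 across groups, 0.155 for the 2 groups compared. Alternatives covered the background, the scaling, the filter, the probe rule, the slide as a block, the arrays in the fit, array weights, the variance model and leaving out each array.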

Additional observations from a re-analysis of the deposited data

Results flagged for a closer look

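For 6 features the 1 h response differed between the genotypes in the interaction test, which asks whether the difference between stressed and control arrays is the same in knockout and wild type. The fitted difference of responses, knockout minus wild type on the log2 scale, was 4.77 for Emb, 3.49 for Cyp26b1 and 2.32 for the unnamed probe 104060687. None of these was detected in knockout controls, so the differences have only bounds, at least 3.42, 3.08 and 1.94, and in all 3 the wild-type difference lay between -0.14 and 0.20. For Spink8 the fitted value was 2.71, at least 2.11 since it was not detected in wild type at 1 h, and for Ttc27 it was 2.53. Both fell in wild type and did not pass in the knockout. The unnamed probe 100630524 had a fitted value of -2.66. It was detected only in wild type at 1 h among these 4 groups, at least 2.74-fold above the wild-type control, and no size of the difference between genotypes is read from it. Groups of 2 arrays are too small to look for single outlying arrays.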

How the results depend on the processing

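The number of features that passed in knockout at 1 h, 27 as reported, depended on the processing. It was 46 with a background offset of 50, 107 without background correction, 15 with the authors' processed values, 15 without the detection filter, 50 with probes detected on both arrays of a compared group, 3 (Fos, Emb and Cyp26b1) with the 4 compared arrays alone, 77 without the knockout 3 h group, 112 with array weights and 202 with a trended, robust variance. The same settings gave for wild type, 8 as reported, 14, 23, 17, 20 and 37 for the offset, no correction, detection on both arrays, array weights and the robust variance, 4 with median scaling, and 0 with its own 4 arrays alone (limma, 962 of 11766 features at an unadjusted p under 0.05). For the interaction, 6 as reported, they gave 20, 30, 16, 36 and 82. With the slide as a replicate block 21 features passed in knockout, 8 in wild type and 4 in the interaction. Leaving out 1 array at a time gave 6 to 77 features in knockout, 3 to 11 in wild type and 2 to 12 in the interaction. The low end in knockout came without replicate 2 of the 1 h group. The high end came without either knockout 3 h array, 44 passed without replicate 1 of the 1 h group, and 9 or 10 passed without any 1 wild-type array.

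Of 1087 values of 91 single genes under the other settings, 988 stayed on their side of the threshold, 61 lost and 37 gained the call, and 1 changed sign, Fosb, at 1.43 with the mean over its probes, which follows from the disagreement of its 2 probes. Of 1092 values with 1 array left out, 129 lost and 10 gained the call and none changed sign. Fos, Emb and Cyp26b1 kept the call under all 12 other settings, with lowest fitted log2 differences of 4.31, 2.82 and 2.23. For Arc and Npas4 the lowest were 1.87 and 1.24. Bounds given as at least a fold thus hold for the main processing only. The cause of the remaining shifts was not tested. Dim genes near background, such as Dact1 and Csrnp1, are limited by signal over background. The value of Csrnp1 is a bound, and no size is given for Dact1.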
